A study of Homo sapiens with 10 samples.

Results

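The T-box genes encode transcription factors that bind DNA through a shared domain, the T-box, and pattern mesoderm, heart, limb, pharynx and cerebral cortex. Each member is tied to particular tissues in the embryo, so a T-box gene that is switched on or off is a marker of lineage as well as a regulator. In the developing cortex EOMES marks intermediate progenitors and TBR1 marks the early deep-layer neurons that follow them, whereas TBX18 and TBX15 are genes of mesenchyme and are close relatives.

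The genes described are TBX1, TBX2, TBX3, TBX4, TBX5, TBX15, TBX18, TBX20, EOMES and TBR1, 10 genes in all, of which 9 are among the 24050 gene identifiers listed in either count table. They were chosen by name with the knockout effect in NPCs in view, so their values in that comparison, and whether they met the call rule there, are given as a description and support nothing. Of the 10 genes, 8 are listed for HEK293T cells and 7 for NPCs, with 6 in both tables. TBX1 and TBX20 are listed for HEK293T cells alone, TBX4 for NPCs alone, and TBX5 in neither table, so its levels, and those of the other 3 in the second cell type, were not analysed here.

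Stranded mRNA libraries of 4 groups were sequenced. HEK293T cells, a line derived from human embryonic kidney, were sequenced as WT (libraries S15, S16 and S17) and as ZNF274 KO (S18, S19 and S20). NPCs, neural progenitor cells made from H1 human ESCs through embryoid bodies, were sequenced as WT (S3 and S5) and as ZNF274 KO (S1 and S2). The KO cells carry a homozygous CRISPR-Cas9 deletion of ZNF274, a KRAB zinc finger protein that silences gene clusters, and were raised from single cells or single colonies, so that differences among clones cannot be told apart from the deletion. The labels call the libraries biological replicates of independent clones without saying which library came from which clone, and P values measure the spread between these libraries. Libraries held 18621266 to 32285876 counts on genes, with the NPC libraries at 18621266 to 23035490. ZNF274 had 423 to 492 counts in WT and 0 in KO libraries of HEK293T cells, and 491 and 496 against 0 and 0 in NPCs. In WT NPCs all 9 neural progenitor markers looked for had counts, as did all 11 mesenchymal markers, of which DCN, with 2 and 0 counts, was below the floor of 3 counts per library used here, and the WT libraries stood apart in some of them: SOX1 had 154 counts in S3 and 989 in S5. Among HEK293T KO libraries S18 stood apart, with a Spearman correlation across genes of 0.972 with S19 and 0.972 with S20, against 0.990 between those, and without it 0 T-box genes were called in HEK293T cells, as with it.

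The call rule for differential expression was an FC above 2 with an adjusted P value below 0.05 in edgeR's quasi-likelihood test. CPM are counts scaled to library size with TMM factors. A level of 3 counts per library was taken as the floor, which is 0.0921 to 0.131 CPM in HEK293T libraries and 0.135 to 0.154 CPM in NPC libraries. Where a whole group had 0 counts of a gene, the FC is a lower bound against that floor, and for a gene with 1 to 3 counts in a group the ratio of the summed, normalized counts is given with its exact 95% interval. These intervals and floors cover counting error only.

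The start regions of the 3 genes that met the call rule in NPCs are shown first. They are the RefSeq windows of GRCh38.p14 around the RefSeq start, 300 bases each, 5′ to 3′ on the strand of the gene, with each CpG in capitals. Windows were found for 7 of the 10 genes, and each of the 3 matched the GRCh37 chromosome at 1 place. The RefSeq start is the annotated gene start for TBX18 and TBR1, and for EOMES it lies 388 bases inside the gene span given here.

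TBX18: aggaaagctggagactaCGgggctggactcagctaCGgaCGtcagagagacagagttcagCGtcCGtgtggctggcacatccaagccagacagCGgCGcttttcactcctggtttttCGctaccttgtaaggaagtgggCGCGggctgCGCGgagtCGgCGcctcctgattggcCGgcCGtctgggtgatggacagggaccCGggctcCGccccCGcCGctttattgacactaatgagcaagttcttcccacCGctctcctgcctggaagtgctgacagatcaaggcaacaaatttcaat
EOMES: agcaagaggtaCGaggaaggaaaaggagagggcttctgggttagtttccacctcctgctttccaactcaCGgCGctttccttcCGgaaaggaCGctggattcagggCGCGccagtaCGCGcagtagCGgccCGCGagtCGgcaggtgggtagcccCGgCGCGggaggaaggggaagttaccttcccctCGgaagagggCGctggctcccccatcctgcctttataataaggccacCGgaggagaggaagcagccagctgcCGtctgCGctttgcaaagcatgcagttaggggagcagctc
TBR1: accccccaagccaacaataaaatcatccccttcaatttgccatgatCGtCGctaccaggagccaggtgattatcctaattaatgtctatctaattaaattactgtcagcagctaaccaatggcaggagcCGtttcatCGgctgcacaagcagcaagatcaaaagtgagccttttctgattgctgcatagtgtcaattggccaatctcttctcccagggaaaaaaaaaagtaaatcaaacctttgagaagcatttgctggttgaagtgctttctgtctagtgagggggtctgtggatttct

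The TBX18 window (chr6:84764549-84764848, minus strand) and the EOMES window (chr3:27722274-27722573, minus strand) hold 21 CpGs each, above the median of 14 over 35116 windows. The TBR1 window (chr2:161416047-161416346, plus strand) holds 4, which is the lower quartile of those windows. The GC content was 59.3% for TBX18, 61.7% for EOMES and 43.3% for TBR1, beside a median of 58.7%. The T half-site that T-box proteins bind, AGGTGTGA on either strand, was found in 0.98% of all windows and in none of those 3. Its core GGTGTG, which the longer motif contains, was found in 16.8% of windows, and likewise in none of the 3. A match or its absence describes these letters alone.

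TBX18 (ENSG00000112837, chromosome 6 of hg19, 85397069 to 85474316) encodes a repressor needed for the mesenchyme of the sinus horn, ureter and somites. In NPCs it had 0 counts in WT library S3, 0 in S5, and 183 and 131 in KO libraries S1 and S2. Both KO libraries thus lay above both WT libraries, in which the gene was not detected at this depth. The KO level of 7.47 ± 2.22 CPM (SD, n = 2) was at least 50.5-fold higher than the floor in WT cells. TBX18 met the call rule, and did so in each of the 11 alternatives run. Because it passed the filter on low counts through the KO libraries alone, it had to differ, and nothing further is read from its call.

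EOMES (ENSG00000163508, chromosome 3, 27757440 to 27764202) had 12 and 5 counts in WT NPC libraries S3 and S5 and 0 in both KO libraries. Its WT level was 0.412 ± 0.221 CPM (SD, n = 2), so that KO NPCs were at least 2.91-fold lower. TBR1 (ENSG00000136535, chromosome 2, 162272808 to 162282381) had 22 and 8 counts in the same WT libraries and 1 and 0 in KO libraries S1 and S2. The summed level of TBR1 was 31.3-fold higher in WT NPCs, with an interval of 5.21 to 1278 from 30 counts against 1. Both cortical genes met the call rule as lower in KO NPCs, at the low level of at most 22 counts per library, and in both WT library S3 held more of the transcript than S5. They passed the filter on low counts through the WT libraries alone, as TBX18 did through the KO libraries, and nothing further is read from their calls. The call on EOMES was lost with DESeq2 and that on TBR1 with voom, and both were lost without WT library S3, KO library S1 or KO library S2. The fitted log2 FC of EOMES was -6.12, and -6.61 to -5.44 with a library left out. With 0 counts in both KO libraries, these values depend on the small prior count that the fit adds and are no measured size. The fitted log2 FC of TBR1 was -4.63, and it moved to -3.74 without S2 and to -6.94 without S1, which leaves KO library S2 with 0 counts.

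The other mesenchymal and limb genes had low counts in NPCs. TBX15 (ENSG00000092607, chromosome 1, 119425669 to 119532179), a gene of skeletal mesenchyme, had 0 and 4 counts in WT and 16 and 17 in KO libraries, with a log2 FC of 2.89 (standard error 1.08, 95% interval 0.34 to 5.45). TBX3 (ENSG00000135111, chromosome 12, 115108060 to 115121980), a repressor needed for limb and mammary development, had 5 and 0 counts in WT and 15 and 12 in KO libraries, with a log2 FC of 2.34 (standard error 1.11, 95% interval -0.29 to 4.97). TBX2 (ENSG00000121068, chromosome 17, 59477204 to 59486827), its closest relative, had 1 and 0 counts in WT and 9 and 6 in KO libraries, a ratio of 14.4 with an interval of 2.21 to 605. TBX2 passed the filter on low counts through the KO libraries alone, so it had to differ, and nothing is read from its direction. For these 3 genes every KO library lay above every WT library, yet none met the call rule. TBX15 met it without WT library S5 and TBX3 without WT library S3, each the library that holds the WT counts of the gene, and TBX2 and TBX3 met it when all 10 libraries shared 1 fit. Leaving out 1 NPC library moved the log2 FC from 1.89 (without S3) to 7.05 (without S5) for TBX15. For TBX3 it moved from 1.40 (without S5) to 6.74 (without S3), and for TBX2 from 2.76 (without S5) to 5.90 (without S3). The size of these 3 differences is therefore not settled.

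TBX4 (ENSG00000121075, chromosome 17, 59529765 to 59562471), a gene of hindlimb and lung that lies 42.9 kb from TBX2, had 5 and 0 counts in WT NPCs and 2 and 0 in KO NPCs. Its libraries overlapped between genotypes, and the ratio of WT to KO was 2.61 with an interval of 0.427 to 27.4. TBX4 was therefore the only gene of the pair TBX2 and TBX4 whose KO libraries were not all above the WT libraries, although the difference between the genes was not tested.

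**Figure D1:**
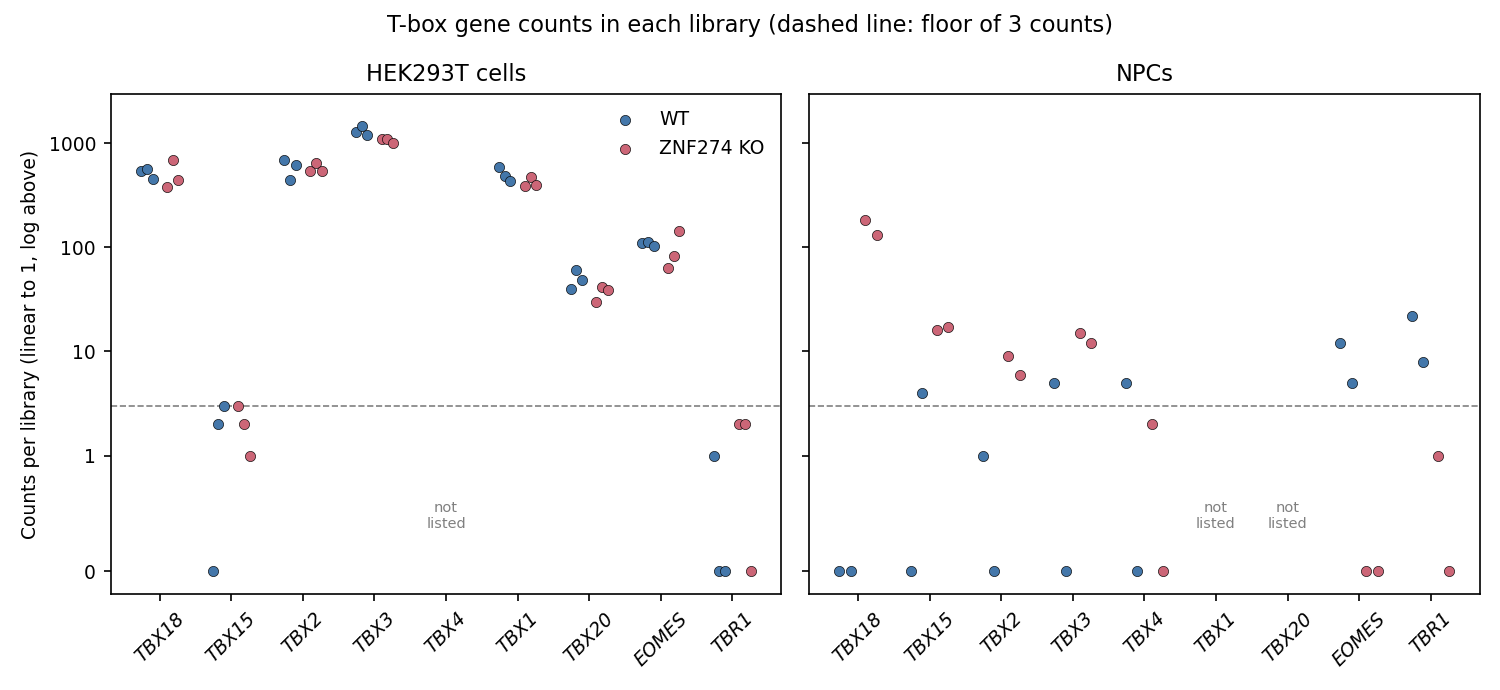
Counts of the T-box genes in each library, on an axis that is linear to 1 and logarithmic above, for HEK293T cells (3 WT and 3 KO libraries) and NPCs (2 WT and 2 KO libraries); each point is a library and the dashed line is the floor of 3 counts. TBX18 stands at 0 in both WT NPC libraries and at 183 and 131 in the KO libraries, and EOMES and TBR1 show the opposite order at lower counts, whereas in HEK293T cells the genotypes overlap for each gene but TBX3, whose counts separate while its CPM overlap.

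Of the 7 genes tested in NPCs, 1 was called higher, against 8.45% of all 20577 genes tested, and 2 were called lower, against 8.36%, so that 3 were called in all against 16.8%. KO and WT libraries did not overlap for 6 of the 7 genes, a state shared by 67.1% of all genes tested there. Their log2 FC had a median of 2.34, while the median over all genes was -0.022. The median of the 7 genes was 1.27 when genes at or below the floor in every library of a group, TBX2 among them, took bounds against the floor. All 7 listed genes passed the filter on low counts, TBX18 and TBX2 through the KO libraries alone and EOMES, TBR1 and TBX4 through the WT libraries alone. The genes were chosen with this comparison in view, so these shares are a description.

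In HEK293T cells TBX2, TBX3, TBX18 and EOMES stood at higher levels than in NPCs of the same genotype, TBX15 and TBR1 were at or below the floor, and in CPM the genotypes did not separate for any of them. TBX18 had 539, 560 and 456 counts in WT and 380, 689 and 440 in KO libraries, or 17.6 ± 1.95 CPM and 18.1 ± 2.68 CPM (SD, n = 3 each). The log2 FC was 0.041 (standard error 0.183, 95% interval -0.36 to 0.44, and adjusted p = 0.972 over 19018 genes by edgeR). The KO libraries held both the lowest and the highest count of TBX18, so that the genotypes overlapped.

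TBX3, the most abundant of the genes, had 1290, 1464 and 1208 counts in WT and 1098, 1109 and 1004 in KO libraries. In CPM these were 44.8 ± 4.96 and 39.8 ± 7.24 (SD, n = 3 each), with a log2 FC of -0.17 (95% interval -0.54 to 0.21), and the genotypes overlapped in CPM though not in counts. TBX2 had 683, 447 and 620 counts in WT and 536, 648 and 542 in KO libraries, and its log2 FC was 0.10 (95% interval -0.32 to 0.52). TBX1 (ENSG00000184058, chromosome 22, 19744226 to 19771116), a gene of the pharyngeal arches and outflow tract, had 597, 483 and 437 counts against 387, 471 and 393, and a log2 FC of -0.16 (95% interval -0.56 to 0.25). None of these intervals reaches an FC of 2 in either direction.

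EOMES had 110, 112 and 102 counts in WT HEK293T cells and 64, 82 and 143 in KO cells. KO library S20 was the highest of the 6 libraries while the other KO libraries were below the WT libraries in counts, and the log2 FC was -0.044 (95% interval -0.76 to 0.67). TBX20 (ENSG00000164532, chromosome 7, 35242042 to 35293711), a cardiac factor, had 40, 61 and 49 counts in WT and 30, 42 and 39 in KO libraries, with a log2 FC of -0.33 (95% interval -1.05 to 0.39). TBX15 had 0, 2 and 3 counts in WT and 3, 2 and 1 in KO libraries, at or below the floor throughout, and no FC is given. TBR1 had 1, 0 and 0 counts against 2, 2 and 0, too few for the filter, and was not tested.

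Of the 7 genes tested in HEK293T cells, 0 were called, against 0.489% of all genes (0.478% higher and 0.0105% lower). The unadjusted P value was below 0.05 for 0 of the 7, against 7.12% of all genes. DESeq2 and voom called 0 of them as well, and so did each fit that left out a library. Adjusted P values ran from 0.873 to 0.985 (edgeR's quasi-likelihood test). In CPM, KO and WT libraries overlapped for each of the 7 genes, whereas 12.4% of all genes tested had libraries that did not overlap. The direction of TBX2, TBX15, TBX18 and EOMES turned when single libraries were left out, so no direction is given for these genes.

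**Figure D2:**
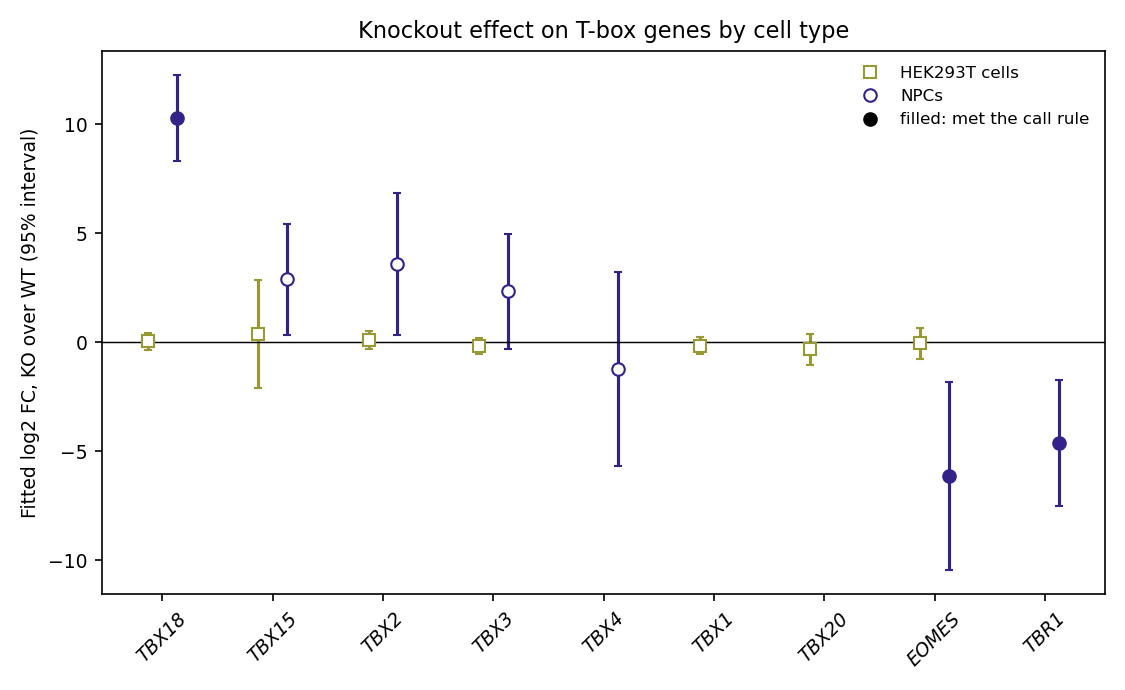
Fitted log2 FC of KO over WT with its 95% interval for each T-box gene in HEK293T cells (squares) and NPCs (circles); filled symbols met the call rule. The HEK293T values other than that of TBX15, which is at or below the floor, lie between -0.33 and 0.10, and the NPC values run from -6.12 for EOMES to 10.28 for TBX18; fitted values of genes at or near 0 counts in a group depend on the prior count of the fit and are no bounds.

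The question of whether the knockout effect differs between the cell types was asked in 1 fit of all 10 libraries, over 19255 genes listed in both tables. The effect in NPCs minus that in HEK293T cells was 10.55 for TBX18 (standard error 0.776, log2 scale), 3.52 for TBX2 (standard error 0.875), 2.52 for TBX3 (standard error 0.718) and -6.37 for EOMES (standard error 1.45). These 4 of the 6 genes in the fit met the call rule, 3 higher against 6.01% of all genes and 1 lower against 6.22%, or 12.2% in either direction. For TBR1 the difference was -6.39 (standard error 2.04) and for TBX15 it was 2.56 (standard error 1.65), and neither met the rule. Since the fit holds the NPC comparison that guided the choice of genes, these values are a description. TBX18 had 0 counts in WT NPCs and EOMES had 0 in KO NPCs. Their fitted differences therefore depend on the prior count of the fit and are no measured sizes.

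The call on the difference held for TBX18 in each alternative run. That for TBX2 was lost with DESeq2, with voom, and without NPC library S5 or S1. That for TBX3 was lost with voom, with library size alone as the scaling, and without any 1 of S16, S17, S19, S20, S5, S1 and S2. That for EOMES was lost without S3, S1 or S2. The rule was met for TBR1 with filterByExpr, library size alone, voom and without S20. The difference itself was 6.14 without S3 and 2.68 without S5 for TBX2, 7.25 without S3 and 1.58 without S5 for TBX3, and -3.97 with voom for EOMES. With 1 library left out it ran from 1.56 (without S3) to 6.99 (without S5) for TBX15 and from -8.99 (without S1) to -5.48 (without S2) for TBR1. Where a left-out library leaves a group at 0 counts of a gene, the value depends on the prior count of the fit.

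The WT cells themselves differed in which T-box genes they held. Scaled over all 10 libraries, TBX3 stood at 44.7 ± 5.11 CPM in WT HEK293T cells (SD, n = 3) and 0.119 ± 0.168 CPM in WT NPCs (SD, n = 2). The log2 difference was -8.45 (standard error 0.477), and -13.17 without S3 and -7.53 without S5. WT NPC library S5 had 0 counts of TBX3, so the value without S3 depends on the prior count of the fit. TBX2 was 799-fold higher in WT HEK293T cells, with an interval of 143 to 31587 from 1750 counts against 1, which is from S3. TBX18, at 17.5 ± 1.98 CPM in WT HEK293T cells, was at least 119-fold lower in WT NPCs. EOMES was at 3.65 ± 0.208 CPM in WT HEK293T cells and 0.414 ± 0.222 CPM in WT NPCs, 8.83-fold lower in the neural cells. Its log2 difference was -3.12, and -3.81 without S3 and -2.67 without S5. TBR1 alone of the 6 genes was higher in WT NPCs with libraries that did not overlap. It was 65.7-fold higher, with an interval of 10.9 to 2680 from 30 counts against 1. Its log2 difference was 5.51, and 4.69 without S3 and 7.19 without S15, where the WT HEK293T libraries left hold 0 counts of TBR1. TBX15 had 4 counts in WT NPCs and 5 in WT HEK293T cells. Of the 6 genes, 4 were called lower and 1 higher in WT NPCs, against 15.5% and 25.2% of all genes, and 5 in either direction against 40.7%. The sources used here do not say whether libraries of both cell types were prepared together, so cell type cannot be told apart from any difference in preparation.

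Levels were compared between genes per kb of annotated exon. In WT HEK293T cells the order ran from TBX3 at 7.51 ± 0.832 CPM per kb through TBX1 at 4.36 ± 0.661, TBX2 at 3.24 ± 0.636 and TBX18 at 2.03 ± 0.225 to EOMES at 1.001 ± 0.0546 and TBX20 at 0.929 ± 0.210 (SD, n = 3 each). EOMES and TBX20 overlapped among libraries, as did TBX15 and TBR1 at the bottom, and the other neighbours did not. In WT NPCs EOMES at 0.113 ± 0.0604 and TBR1 at 0.0772 ± 0.0476 CPM per kb (SD, n = 2 each) came first, and each gene overlapped the next. In KO NPCs TBX18 came first at 0.863 ± 0.256 CPM per kb, followed by TBX15 at 0.179 ± 0.00399, TBX3 at 0.108 ± 0.0238 and TBX2 at 0.0588 ± 0.0203, with no overlap between neighbours, and EOMES came last at 0. The gene that ranked first in KO NPCs was thus at 0 in WT NPCs, and the gene that ranked first in WT NPCs was at 0 in KO NPCs.

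**Figure D3:**
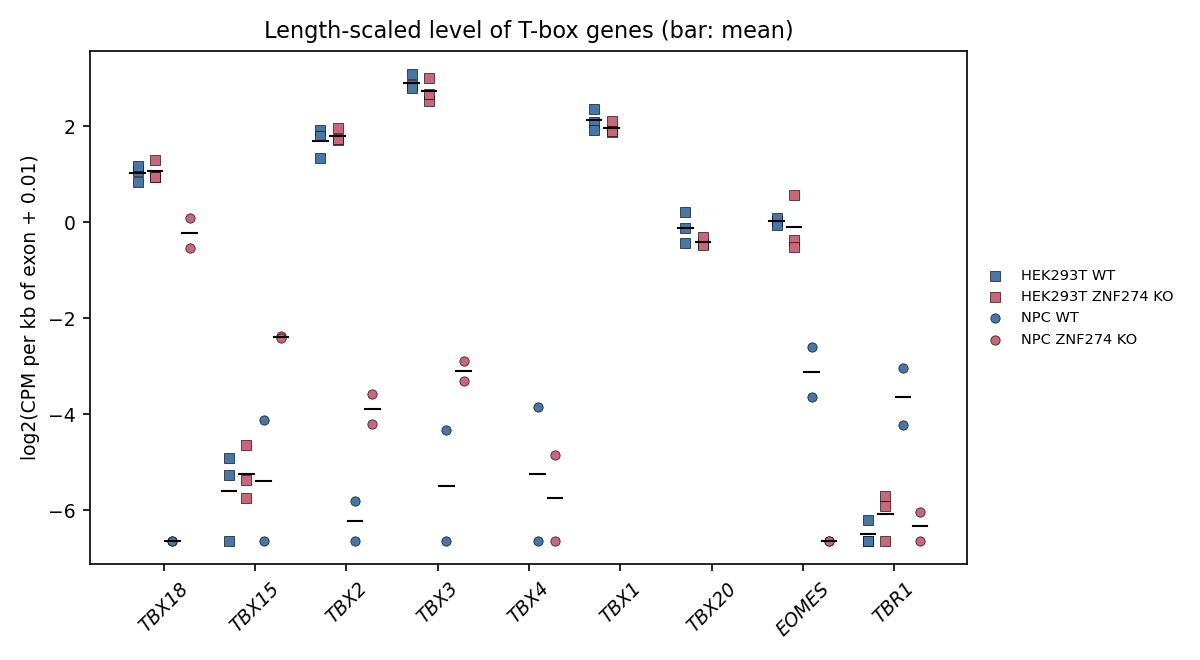
Level of each T-box gene as log2 of CPM per kb of exon plus 0.01, by library and group; squares are HEK293T cells, circles are NPCs, blue is WT, red is ZNF274 KO and the bar is the mean of the plotted values. TBX3, TBX1, TBX2 and TBX18 are at 2.03 to 7.51 CPM per kb on average in WT HEK293T cells, and KO NPCs reach 0.863 for TBX18.

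Genes that overlap the T-box genes were examined, since the strand setting of the counting is not given in the sources used here and reads of antisense partners could then not be told apart. TBX2-AS1 (chromosome 17, 59470816 to 59488916) spans all 9624 bases of TBX2 on the other strand, and stood at 3.16 ± 0.393 CPM in WT and 3.73 ± 1.16 CPM in KO HEK293T cells (SD, n = 3 each). SLC4A10, which begins inside TBR1 and shares 1539 bases with it on the same strand, had 7 and 16 counts in WT NPCs and 0 and 3 in KO NPCs and was not called. GNB1L, which shares 371 bases with the end of TBX1, fell in KO NPCs from 8.57 ± 1.34 to 3.92 ± 1.21 CPM (SD, n = 2 each), a log2 FC of -1.13 (edgeR, adjusted p = 0.034). TBX18 and EOMES overlap no other gene listed in the tables.

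Of the remaining T-box genes, 3 were tested in NPCs and 0 were called. The unadjusted P value in edgeR was below 0.05 for 0 of them, with TBX6 at 0.054. The share of all genes below 0.05 was not calculated for NPCs. DESeq2 and voom called 0 as well, and the fit of all 10 libraries called 1 lower. Of all genes 16.8% were called in NPCs. MGA, a partner of MAX that holds a T-box beside a second DNA-binding domain, stood at 54.1 ± 3.72 CPM in WT and 63.3 ± 2.95 CPM in KO NPCs (SD, n = 2 each), with a log2 FC of 0.23 (standard error 0.121). TBX19, a pituitary factor, had 18 and 5 counts against 13 and 11, and TBX6, a factor of paraxial mesoderm, had 8 and 8 against 1 and 2, a WT to KO ratio of 5.57 with an interval of 1.59 to 29.8. In HEK293T cells 4 of these genes were tested and 0 were called, with 0 at an unadjusted P value below 0.05, against 0.489% and 7.12% of all genes.

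Among the factors that work beside EOMES and TBR1 in the cortex, more were called lower than higher in KO NPCs. Of 16 genes in this list, 14 were tested, 8 were called lower and 1 higher (8.36% and 8.45% of all genes were). The median log2 FC was -2.14, beside -0.022 over all genes. It was -1.62 in this list when genes at or below the floor in every library of a group took bounds in place of fitted values. FEZF2, a factor of deep-layer projection neurons, had 925 and 1109 counts in WT and 2 and 0 in KO libraries, a WT to KO ratio of 1062 with an interval of 294 to 8772. PAX6, which acts before EOMES in cortical progenitors, fell from 83.2 ± 6.67 to 33.7 ± 11.5 CPM (SD, n = 2 each; log2 FC -1.30, adjusted p = 0.00556, edgeR's quasi-likelihood test), and SOX5 fell from 24.3 ± 8.33 to 3.71 ± 1.81 CPM (log2 FC -2.71). HES6 fell from 14.1 ± 1.17 to 4.76 ± 1.49 CPM, and INSM1, a factor of intermediate progenitors, had 49 and 17 counts against 3 and 0, a WT to KO ratio of 23.0 with an interval of 7.52 to 114. RELN, the secreted protein of Cajal-Retzius cells and a described target of TBR1, was the member that rose, from 1.49 ± 0.370 to 26.8 ± 2.45 CPM (log2 FC 4.16, standard error 0.254). Of the 8, 5 (NEUROG2, NEUROD4, BCL11B, FEZF2 and INSM1) passed the filter on low counts through the WT libraries alone, so they had to differ, and nothing is read from the count beside the share of all genes. The number called lower was 5 with voom, 3 without KO library S1 and 4 without KO library S2. In HEK293T cells 9 of the 16 genes were tested and 0 were called, with 0 at an unadjusted P value below 0.05 in edgeR, against 0.489% and 7.12% of all genes.

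The factors of mesoderm, heart and limb that work beside T-box proteins were called in both directions in KO NPCs, and the calls depended on single libraries. Of 20 genes, 12 were tested, 3 were called higher and 3 lower, against 8.45% and 8.36% of all genes. The median log2 FC was 1.78, or 1.11 with bounds for genes at or below the floor in every library of a group. MSX2, with 326 and 71 counts in WT libraries S3 and S5 and 1078 and 790 in KO libraries, rose from 9.53 ± 8.34 to 44.4 ± 12.5 CPM (SD, n = 2 each; log2 FC 2.21, adjusted p = 0.0261, edgeR's quasi-likelihood test), and TWIST1 had 5 and 3 counts against 40 and 17. ISL1, a factor of cardiac progenitors and motor neurons, rose at least 3.04-fold, from 0 counts in each WT library to 10 and 9. SALL4 fell from 18.7 ± 7.19 to 1.78 ± 0.349 CPM and MEIS1 from 5.77 ± 2.20 to 0.259 ± 0.0165 CPM. FGF10, a limb and lung growth factor downstream of TBX4 and TBX5, fell at least 7.67-fold, from 7 and 36 counts to 0 in S1 and S2. ISL1 passed the filter through the KO libraries alone and FGF10 through the WT libraries alone, so they had to differ. The number called higher was 0 without KO library S1, 2 without S2, 5 without WT library S3, 6 without S5 and 5 with all 10 libraries in 1 fit. The cardiac genes GATA4, GATA5, NKX2-5, HAND1 and HAND2 were not tested in NPCs. In HEK293T cells 17 genes were tested and 0 were called, with 0 at an unadjusted P value below 0.05 in edgeR, against 0.489% and 7.12% of all genes.

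Among 14 described target genes of T-box proteins, 11 were tested in NPCs, 4 were called higher and 2 lower, against 8.45% and 8.36% of all genes. The median log2 FC was 0.45, or 0 with bounds for genes at or below the floor in every library of a group. Besides RELN and FGF10, the genes called included HCN4, the pacemaker channel, which rose from 2.61 ± 1.08 to 9.44 ± 1.18 CPM (SD, n = 2 each; log2 FC 1.85), CDKN2A, a cell cycle inhibitor that TBX2 and TBX3 repress, which rose from 0.821 ± 0.358 to 17.97 ± 0.895 CPM (log2 FC 4.45), and CACNA1G, a calcium channel gene, which fell from 3.29 ± 0.166 to 0.463 ± 0.463 CPM (log2 FC -2.84). The number called lower was 1 with voom or filterByExpr, 3 without WT library S3 or S5, 1 without KO library S1 and 0 without KO library S2. In HEK293T cells 9 were tested and 0 were called, with 3 at an unadjusted P value below 0.05 in edgeR, against 0.489% and 7.12% of all genes.

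**Figure D4:**
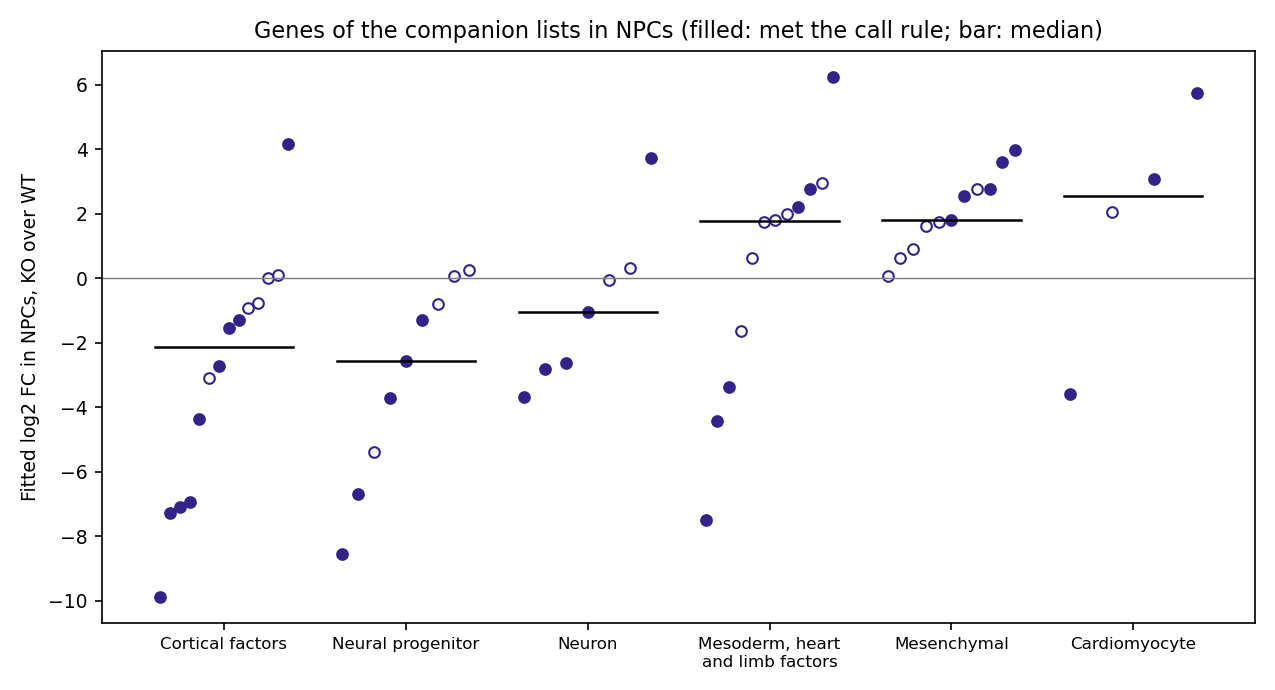
Fitted log2 FC of KO over WT in NPCs for each tested gene of 6 lists; each circle is a gene, filled when it met the call rule, and the bar is the median. The cortical factors have a median of -2.14 with RELN as the 1 filled point above 0, and the mesoderm, heart and limb factors hold 3 filled points on each side.

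Markers of other cell types moved with these results in NPCs, and in bulk samples fewer cells of a type and less RNA per cell cannot be told apart. Of 11 mesenchymal markers tested, 5 were called higher and 0 lower, against 8.45% and 8.36% of all genes, and their summed level was 1330 to 2220 CPM in WT libraries and 5275 to 6107 CPM in KO libraries, with none of the markers at 0 in either group. COL1A1 (601 ± 60.7 and 3480 ± 33.4 CPM) and COL3A1 (68.7 ± 29.2 and 829 ± 277 CPM) made up most of the difference, while COL1A2 stood at 953 ± 514 and 1003 ± 275 CPM (SD, n = 2 each) and was not called. The number called higher was 3 with voom and 3 without KO library S1. Of 7 neuron markers, 4 were called lower and 1 higher, with sums of 1081 to 1174 CPM in WT and 174 to 218 CPM in KO libraries. MAP2 made up most of that sum, at 1041 ± 68.3 CPM in WT and 147 ± 26.2 CPM in KO NPCs (SD, n = 2 each), while TUBB3 (6.63 ± 2.28 and 6.36 ± 2.28 CPM) and STMN2 (16.5 ± 2.10 and 20.7 ± 7.18 CPM) were not called; the genes named from these marker lists beyond the naming rule were chosen after their values were seen. Of 9 neural progenitor markers, 5 were called lower and 0 higher, while their sums overlapped at 10469 to 10526 CPM in WT and 10054 to 10751 CPM in KO libraries, with HES5 at 0 in the KO libraries. VIM (6411 ± 859 and 6768 ± 454 CPM) and NES (2630 ± 517 and 3135 ± 67.9 CPM) made up most of that sum and were not called, while SOX2 fell from 223 ± 5.52 to 16.9 ± 5.93 CPM, FABP7 from 284 ± 147 to 2.76 ± 0.913 CPM and SOX1 to 1 and 2 counts in KO libraries (SD, n = 2 each). Of 4 cardiomyocyte markers tested, 2 were called higher and 1 lower, with sums of 3.46 to 3.79 CPM against 14.7 to 16.2 CPM. The lower call was lost without KO library S2, and was absent with all 10 libraries in 1 fit, where 3 of these markers were tested. MYL7, 1 of those called higher, passed the filter on low counts through the KO libraries alone, as did ELAVL4, the neuron marker called higher, and SOX1 passed it through the WT libraries alone, so these had to differ. Of 5 epithelial markers, 2 were called higher, with sums of 342 to 596 CPM against 1306 to 1468 CPM, and of 4 pluripotent markers 1 was called in each direction, with sums of 139 to 161 CPM against 65.1 to 70.4 CPM and NANOG at 0 in KO libraries. The epithelial count moved in 4 of 12 alternatives, which include fits with a library left out, and was 1 to 2 under other settings. The higher pluripotent call was lost without KO library S1 and without KO library S2. Of 2 endoderm markers tested 0 were called, with 0 at an unadjusted P value below 0.05 in edgeR. Their part in the T-box results was not tested.

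Patterns across all 10 libraries were compared by the correlation of log2(CPM + 0.5). Of 12471 other protein-coding genes with a mean of at least 1 CPM, those most like TBX18 were PITPNB (Pearson r = 0.994), DSP (0.993) and PARVB (0.993). Those most like EOMES were RPL5 (0.992), ACTR6 (0.989) and DEAF1 (0.989). The points share 2 cell types and 4 groups, so that a gene that is high in HEK293T cells and differs between NPC genotypes scores high, and the values are a description.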

How the data were processed

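RNA-seq of 10 libraries was analysed, 3 WT and 3 ZNF274 KO of HEK293T cells and 2 WT and 2 ZNF274 KO of NPCs, grouped by their labels. The authors aligned to hg19 (hisat2), assigned unique reads to genes and transposable elements (featureCounts), and deposited unnormalized counts per gene. Tool versions are not given in the sources used here. Identifiers were paired with symbols, hg19 coordinates and exonic lengths through GENCODE v44 lifted to GRCh37 (23273 of 24050 found), and start regions came from RefSeq.

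Genes with a total count of at least the number of libraries were tested (19018 in HEK293T cells, 20577 in NPCs) in R 4.3.3 with edgeR 4.0.16 (TMM, quasi-likelihood test, Benjamini-Hochberg adjustment over all genes tested), each cell type by itself, and with all 10 libraries for the difference between cell types. The study's methods use voom, which was run as an alternative with limma 3.58.1, beside DESeq2 1.42.0, other scalings and filters, and each library left out. Standard errors were calculated back from the test statistic. The fits were tested on simulated data. Libraries of a group differed by more than sampling noise. The T-box genes and the gene lists were chosen with earlier results of these data known. Named genes were those 10, ZNF274, genes overlapping them, up to 6 genes per list (the highest mean CPM among those called, then among the others), and the 3 genes most correlated with TBX18 and with EOMES. No label pairs libraries. TBX6 and TBX19 were named as the other tested members of their list. The values of 1 gene that this rule names are not reported here.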

Additional observations from a re-analysis of the deposited data

Results flagged for a closer look

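For 4 T-box genes the difference of the knockout effect between the cell types met the threshold in edgeR's fit of all 10 libraries, which holds the NPC values known when the genes were chosen and is therefore no independent test. Of all genes 12.2% met it. The effect in NPCs minus that in HEK293T cells was 10.55 for TBX18, 3.52 for TBX2, 2.52 for TBX3 and -6.37 for EOMES on the log2 scale. The values of TBX18 and EOMES depend on the prior count of the fit, since each gene had 0 counts in an NPC group. Both KO NPC libraries lay above both WT NPC libraries for TBX18, TBX2 and TBX3 and below them for EOMES, while the 3 WT and 3 KO HEK293T libraries overlapped in CPM for each of the 4 genes. Of all genes tested, 67.1% did not overlap in NPCs and 12.4% did not in HEK293T cells. The call was lost for TBX3 in 9 of 16 alternatives, for TBX2 in 4 and for EOMES in 3. Groups held 2 or 3 libraries, and no gap test for single outlying values was run at that size.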

How the results depend on the processing

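TBX18 stayed called higher in NPCs under each of 11 alternatives. The number called higher there was 3 with all 10 libraries in 1 fit and 1 to 2 with a library left out. The number called lower was 1 with DESeq2, 1 with voom, 0 with filterByExpr, which leaves TBX2, TBX4, EOMES and TBR1 out of the fit, and 0 to 2 with a library left out. For the difference between cell types the number higher was 1 with voom and 1 to 3 with a library left out, and the number lower was 2 with filterByExpr, with library size alone and with voom, and 0 to 2 with a library left out. In HEK293T cells the number was 0 in each direction under all 14 alternatives. The log2 FC there turned for EOMES with library size alone (0.039) and, with libraries left out, for EOMES (-0.46 to 0.17), TBX2 (-0.048 to 0.22), TBX15 (fitted at or below the floor, -0.19 to 1.04) and TBX18 (-0.078 to 0.11), and the difference of TBX15 between WT NPCs and WT HEK293T cells ranged from -3.67 to 1.78. With library size alone the median of all genes moved from -0.022 to -0.13 in NPCs and from -0.025 to -0.24 for the difference between cell types. Left-out NPC libraries leave 1 library in a group, which is assumed to vary like the other libraries. No paired analysis was run because no label pairs libraries, so any shared origin of libraries is not taken into account. The cause of these moves was not tested where no construction is named. Most T-box genes have under 25 counts per NPC library, which limits what this depth can show. Over the lists, the number of cortical factors called lower ranged from 3 to 10 with a library left out, and of mesoderm, heart and limb factors called higher from 0 to 6.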
